A study of Danio rerio with 9 samples.

Results

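Cytochrome P450 genes outside the CYP1A, CYP1B, CYP1C, CYP26 and CYP51 groups were followed in day-old zebrafish embryos that had been exposed to a coal dust extract. They were taken by symbol from the deposited gene tables, as every name that starts with cyp and a digit apart from those groups. Of 32312 genes in the tables, 65 had such a name, and 61 of these had at least 10 counts summed over the 9 libraries. The 4 others were cyp2n13 with 6 counts, and cyp2k22, cyp7a1a and cyp8b1 with 2 counts each. The lowest members were cyp19a1a and cyp4f3, with 10 counts each. Symbols in capitals, of which 9 exist and 7 reach 10 counts, are not members. By role the 61 genes are 32 of the CYP2 family, 4 of CYP3, 4 of CYP4, 9 of bile acid and oxysterol metabolism, 7 of steroid hormone synthesis, 3 of vitamin D and A metabolism, and cyp1d1 and cyp20a1.

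Cytochromes P450 are haem enzymes that put an oxygen atom into a substrate, with electrons passed on by a reductase in the endoplasmic reticulum or by ferredoxin in mitochondria. Members of the first families act on drugs, pollutants, fatty acids and their signalling products, and many of them are expressed in vertebrate liver, gut and kidney. The others have narrower substrates and make or remove steroid hormones, bile acids, oxysterols and vitamins. Exposure to ligands of the aryl hydrocarbon receptor is best known for raising cyp1a, cyp1b and cyp1c genes, which are left out here.

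All embryos were of the wild-type TU strain and were sampled whole at 24 h post fertilisation (hpf). The exposed ones had been given coal dust extract (made with methanol and taken up in DMSO) at 100 mg/L and at 4 hpf, and were sorted by malformation. Embryos with a deformed tail form P1 (n = 3 libraries), those with a deformed yolk P2 (n = 2), and P3 (n = 3) holds embryos of small size whose yolk was extruded. The control was 1 library of pooled normal embryos (n = 1), and whether these received DMSO is not given in the sources used. Each phenotype group was made up of 50 embryos, and whether the libraries of a group came from separate embryos is not stated. P-values therefore measure the spread between these libraries, which may be technical. In RNA of whole embryos, fewer cells of a type and less RNA per cell cannot be told apart.

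Libraries held 12008832 to 20810487 gene counts, and 7070 of the control's counts fell on the 61 genes. Levels are CPM (counts scaled to one common library size, here with TMM factors), and comparisons of levels between genes use FPKM, which also divides by gene length. A gene rose or fell where edgeR's adjusted p over 19835 tested genes was below 0.05, and changes are log2 fold changes ± standard error. The control has no replicate, so its spread was taken from the exposed groups, and the 3 comparisons with the control share that 1 library. Libraries of 1 group differed by more than counting noise, with a chi-square per degree of freedom of 1.63 in P2, 2.74 to 3.4 in P1 and 3.28 to 6.75 in P3, where replicate 0 stood furthest from the others. Replicate 0 is the library of an exposed group whose title carries no replicate number and whose column name ends in 0. The members called in the 3 comparisons of P3 (with the control, P1 and P2) numbered 18, 10 and 17, and 18, 12 and 17 without that library. Of the 61 genes, 49 passed a low-count filter and were tested. Because the control group is 1 library, enough counts in any 1 library, relative to its total, were sufficient to pass. The 12 others, at 10 to 52 counts in all, were cyp2ad2, cyp2j20, cyp2k6, cyp2k17, cyp2x9, cyp2x10.2, cyp4f3, cyp27a1.2, cyp39a1, cyp17a2, cyp19a1a and cyp19a1b.

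The P450 genes moved in both directions against the control. The 61 genes together were at 590.3 CPM in the control, 674.5 ± 7.25 (SD, n = 3) in P1, 568.5 ± 17.7 (SD, n = 2) in P2 and 801 ± 27.2 (SD, n = 3) in P3. These sums were 1.14, 0.963 and 1.36 times the control, where cyp1a, cyp1b1, cyp1c1 and cyp1c2 together were 35.4, 33.2 and 34.9 times the control, and the difference between the 2 sums was not tested. In P1, 3 of 49 rose and 10 fell, beside 7.08% and 9.19% of all tested genes. In P2, 5 rose and 11 fell, beside 14.2% and 15.6% of all tested genes. In P3, 11 rose and 7 fell, beside 10.4% and 12.2% of all tested genes. DESeq2, run without the low-count filter, gave no adjusted p for 28, 17 and 17 of the 61 members. With it, 3 rose and 4 fell in P1, 3 rose and 7 fell in P2, and 10 rose and 1 fell in P3. The last of these was cyp17a1, and cyp4v8 and cyp21a2 were among the genes without a DESeq2 adjusted p. The median log2 fold change of the 49 was -0.08 in P1, -0.27 in P2 and 0.17 in P3, and that of all tested genes was within 0.01 of 0. In all, 24 of the 49 passed edgeR's test in at least 1 comparison with the control, beside 37.6% of all tested genes. Of these, cyp2x7 and cyp2y3 rose in all 3 groups, as did 4.04% of all tested genes, and cyp2aa2, cyp2p6, cyp4v8, cyp7c1, cyp17a1 and cyp21a2 fell in all 3, as did 6.57%. The largest falls were in genes of steroid synthesis and in cyp4v8, and the largest rise was that of cyp2x6 in P3, at 3.46-fold. Both cyp4v8 and cyp21a2 passed the low-count filter through the control alone, which favoured their falls.

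**Figure D1:**
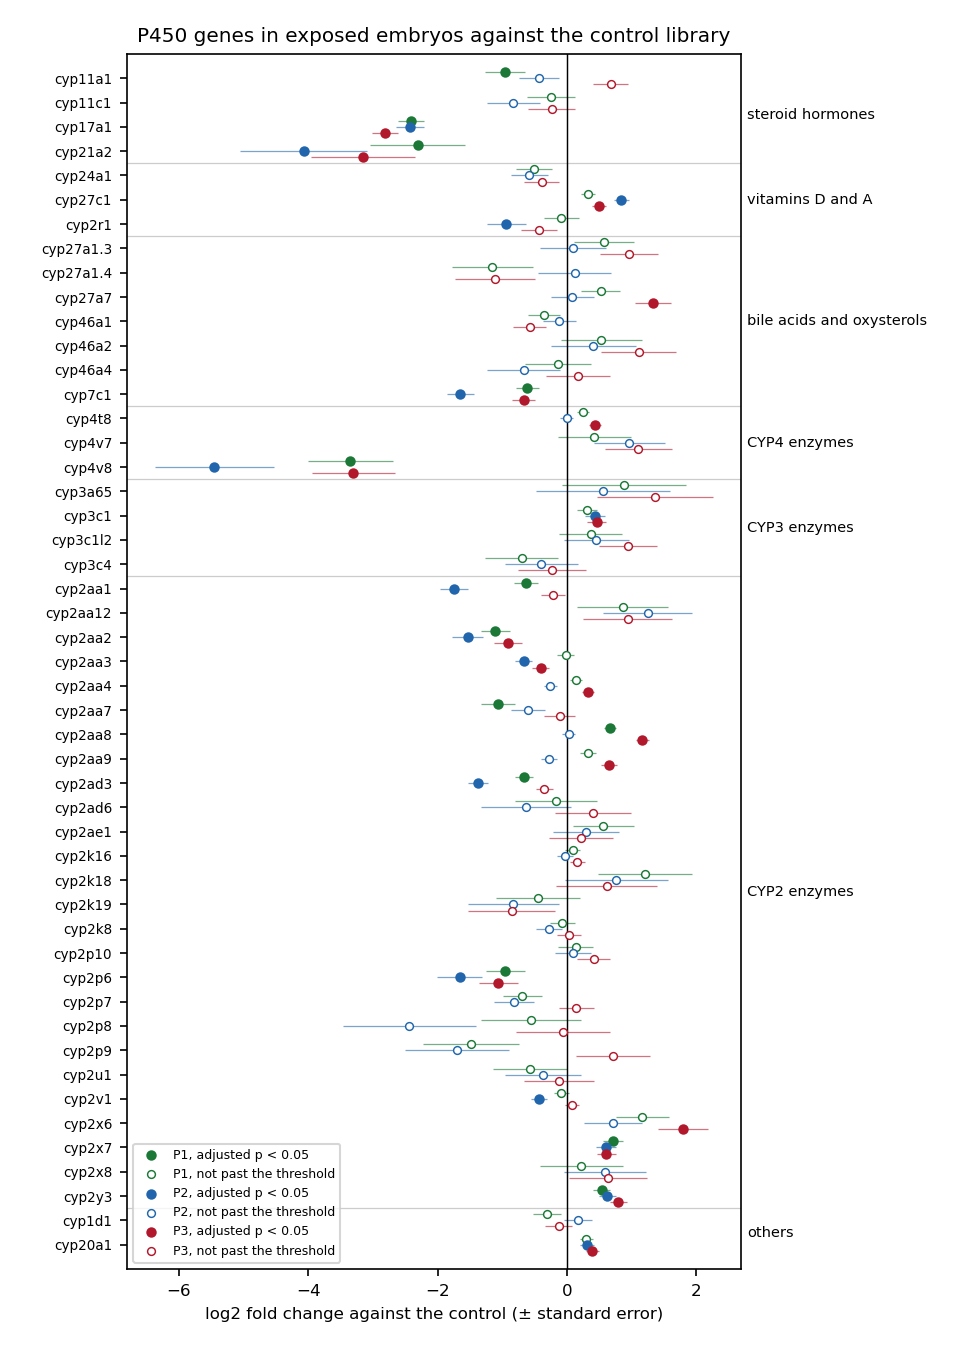
Log2 fold change against the control (x axis, ± standard error) of the 49 tested P450 genes, grouped by role, with P1, P2 and P3 in separate colours and filled points for an edgeR adjusted p below 0.05. cyp4v8, cyp21a2 and cyp17a1 stand farthest to the left in P1 and P3, and in P2 the open point of cyp2p8 lies just left of cyp17a1.

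Within the 61 genes, CYP2 genes held most of the summed FPKM in every group. Per length, cyp2aa8 was the most abundant member in every group, at 45.5 FPKM in the control, 72.1 in P1, 46.8 in P2 and 102 in P3. In the control it was followed by cyp2aa9 at 40.4 FPKM, cyp2aa4 at 26.1, cyp2y3 at 25.9 and cyp2aa3 at 21. These 5 genes held 52% of the summed FPKM of the 61. The next were the fatty acid hydroxylase gene cyp4t8 at 17.6 FPKM and cyp20a1 at 17, an orphan P450 with no settled substrate. At least 1 FPKM was reached by 27 members in the control, 28 in P1, 25 in P2 and 26 in P3. Of the steroid synthesis genes, cyp17a1 was the highest in the control at 5.89 FPKM. The aromatase genes cyp19a1a and cyp19a1b, whose products make oestrogen in the gonad and the brain, had 10 and 47 counts over all libraries.

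**Figure D2:**
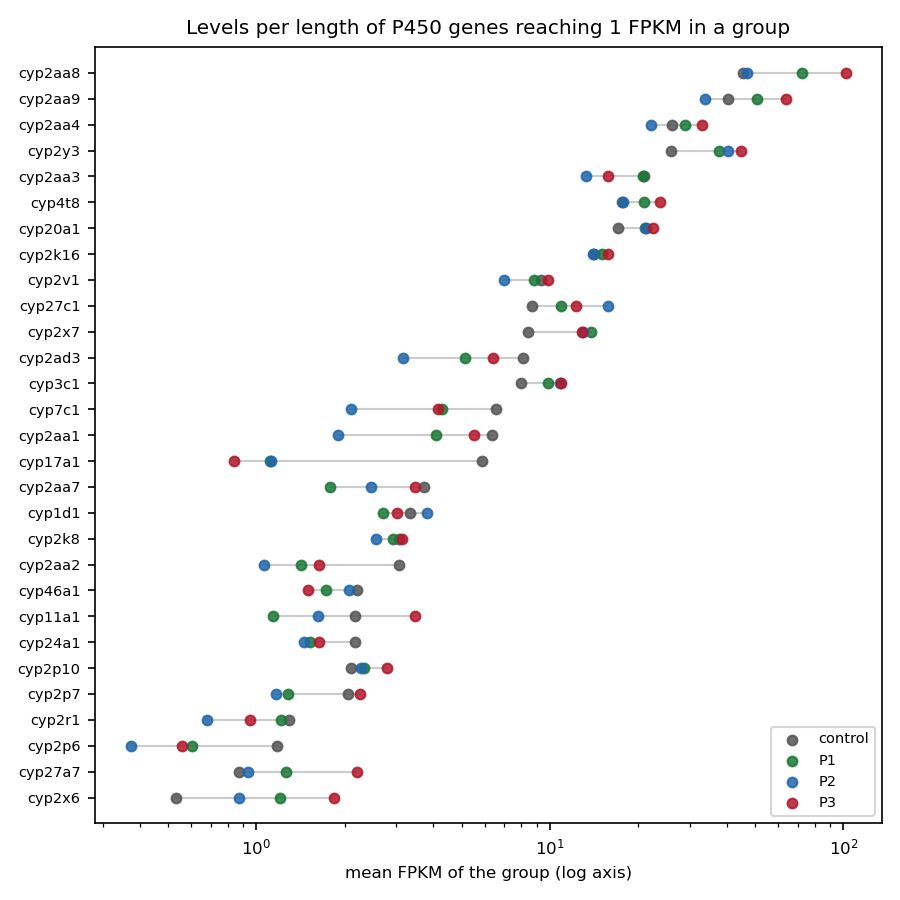
Mean FPKM per group (log x axis) of the P450 genes that reach 1 FPKM in at least 1 group, sorted by their level in the control, which is 1 library. cyp2aa8 reaches 102 FPKM in P3, and cyp17a1 spans the widest range, from 0.841 FPKM in P3 to 5.89 in the control.

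The 7 genes of steroid synthesis together were at 24.7 CPM in the control, 7.69 ± 1.08 (SD, n = 3) in P1, 8.41 ± 0.60 (SD, n = 2) in P2 and 12.3 ± 0.15 (SD, n = 3) in P3. Of the 4 tested, 3 fell in P1, 2 in P2 and 2 in P3, and none rose. Among them cyp21a2 was tested through its control count alone, which favours falls in these numbers. Of all tested genes, 9.19%, 15.6% and 12.2% fell in these comparisons. The first step of the pathway is the cut of the cholesterol side chain by the product of cyp11a1, after which the hydroxylases encoded by cyp17a1 and cyp21a2 lead to androgens and to cortisol. The gene cyp17a1 (ENSDARG00000033566, chromosome 13, 28824797 to 28834567, Zv9) was at 16.5 CPM in the control, 2.56, 3.25 and 3.58 in P1, 3.78 and 2.44 in P2, and 2.31, 2.61 and 2.16 in P3. Every exposed library lay below the control, whose 198 counts give an exact 95% Poisson interval of 14.3 to 19 CPM. The transcript was 5.31-fold lower in P1 (-2.41 ± 0.20, edgeR adjusted p = 3.96e-07), 5.35-fold lower in P2 (-2.42 ± 0.22, edgeR adjusted p = 2.96e-07) and 7.03-fold lower in P3 (-2.81 ± 0.21, edgeR adjusted p = 3.72e-08). The 3 exposed groups overlapped, and the differences between them did not pass the test. Poisson intervals here cover counting error only.

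The gene cyp21a2 (ENSDARG00000037550, chromosome 16, 18626478 to 18639388, Zv9) had 13 counts in the control, 1, 3 and 6 in the P1 libraries, 2 and 0 in P2, and 1, 4 and 1 in P3. It fell in all 3 groups by edgeR's test, with adjusted p = 0.0395 in P1, 0.00472 in P2 and 0.00875 in P3. Only the control had enough counts for the low-count filter, so cyp21a2 was tested because it was high there. A fall was thereby favoured, and these p-values are no independent support for it. At so few counts the ratio of control to exposed counts, summed per group and divided by library totals, is best given with its exact counting interval. It was 5.1 (2.07 to 13) for P1, 18.7 (4.24 to 171) for P2 and 9.45 (3.35 to 30.3) for P3. The P1 call was lost without P1 replicate 0 or P1 replicate 1, with edgeR adjusted p of 0.097 and 0.0802.

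The gene cyp11a1 (ENSDARG00000002347, chromosome 25, 23043279 to 23058622, Zv9) moved apart between the groups. It was at 4.76 CPM in the control, 1.45, 3.52 and 2.52 in P1, 3.47 and 3.58 in P2, and 7.86, 7.38 and 7.62 in P3. All P3 libraries lay above the control, and all P1 and P2 libraries below it. Against the control it fell in P1 (-0.95 ± 0.31, edgeR adjusted p = 0.0453), a call lost without P1 replicate 0 or P1 replicate 2 (edgeR adjusted p of 0.0785 to 0.0864), with DESeq2 (adjusted p = 0.0729) and in a fit of those 2 groups alone (edgeR adjusted p = 0.0533). The changes in P2 (-0.43 ± 0.31) and P3 (0.68 ± 0.27) did not pass the test. P3 was 3.1-fold higher than P1 (1.63 ± 0.19, edgeR adjusted p = 2.67e-05) and 2.15-fold higher than P2 (1.11 ± 0.20, edgeR adjusted p = 0.000785). The fourth tested gene, cyp11c1, encodes the fish enzyme that completes cortisol, and was at 1.59 CPM in the control and 0.792 to 1.57 CPM in the exposed libraries. It passed no test, with changes of -0.25, -0.83 and -0.24 in P1, P2 and P3. A paralog of cyp17a1, cyp17a2, was not tested and had 0 to 10 counts per library.

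Partners of these enzymes changed in both directions. Beside the shares of all tested genes given above, of 10 tested partner genes of steroid synthesis, 1 rose and 3 fell in P1, 1 rose and 2 fell in P2, and 2 rose and 3 fell in P3. The gene star, whose product brings cholesterol into mitochondria, was at 2.75 CPM in the control, 0.988, 0.745 and 0.927 in P1, 0.609 and 0.489 in P2, and 0.561, 0.763 and 0.639 in P3. It lay lower in every exposed library and fell in P1 (-1.62 ± 0.34, edgeR adjusted p = 0.00334), P2 (-2.32 ± 0.39, edgeR adjusted p = 0.000229) and P3 (-2.06 ± 0.35, edgeR adjusted p = 0.000347). The gene hsd11b2, whose product inactivates cortisol, was at 5.93 CPM in the control, 2.03, 2.51 and 1.92 in P1, 1.4 and 1.03 in P2, and 2.43, 2.42 and 1.62 in P3. It also lay below the control throughout and fell in P1 (-1.46 ± 0.26, edgeR adjusted p = 0.00112), P2 (-2.29 ± 0.31, edgeR adjusted p = 2.44e-05) and P3 (-1.48 ± 0.26, edgeR adjusted p = 0.000516). The mitochondrial translocator gene tspo rose in all 3 groups (0.80, 1.00 and 0.80). The 4 matched markers of interrenal and gonad were star, nr5a1a, nr5a1b and hsd3b1, and all of them also stand in the partner list. They summed to 8.77 CPM in the control, 5.69 to 6.97 in P1, 7.28 to 7.37 in P2 and 5.31 to 8.29 in P3. In each comparison with the control 1 of the 3 tested markers, star, fell, and their part in the result was not tested.

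**Figure D3:**
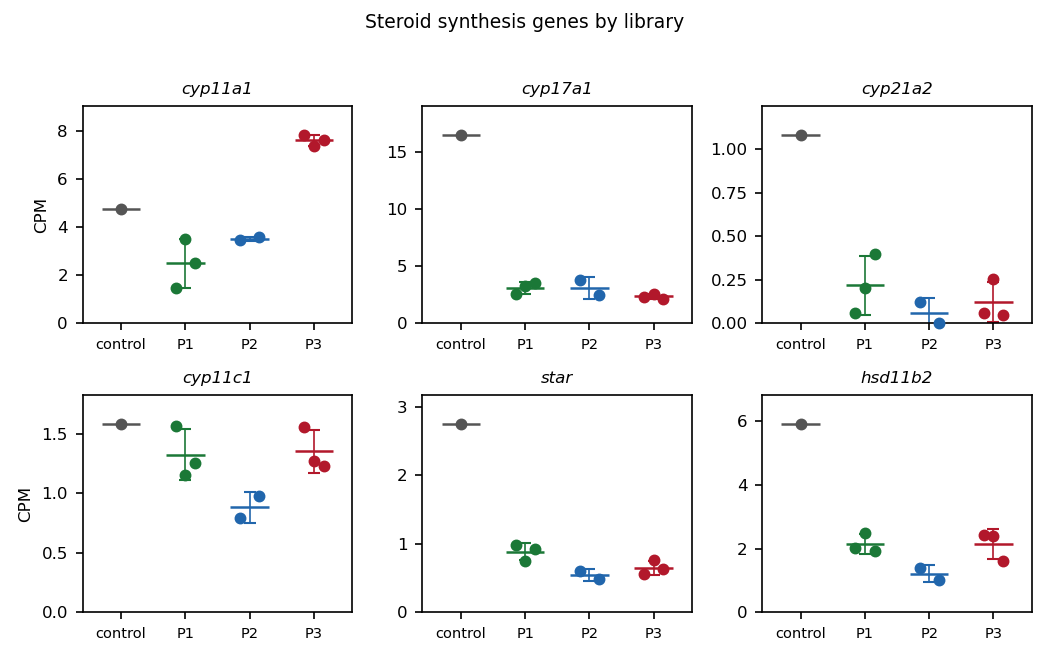
CPM in each library (y axis, from 0) of 4 P450 genes of steroid synthesis and of star and hsd11b2, by group, with the mean as a line and the SD as a bar where a group has more than 1 library. cyp17a1, cyp21a2, star and hsd11b2 lie below the control in all 8 exposed libraries, and cyp11a1 lies above it in P3 alone.

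Among the 9 genes of bile acid and oxysterol metabolism, 7 were tested. The gene cyp7c1 (ENSDARG00000008858, chromosome 2, 42236837 to 42253253, Zv9), named CYP7B1 in the gene name table, corresponds to an oxysterol hydroxylase of mammals. It was at 11.2 CPM in the control, 7.2, 7.72 and 7.02 in P1, 3.41 and 3.69 in P2, and 8.11, 7.38 and 5.85 in P3. Both P2 libraries lay below all others and the control above all. It fell 1.53-fold in P1 (-0.61 ± 0.18, edgeR adjusted p = 0.0262), 3.14-fold in P2 (-1.65 ± 0.21, edgeR adjusted p = 1.25e-05) and 1.59-fold in P3 (-0.67 ± 0.18, edgeR adjusted p = 0.0122), and P2 was also below P1 (-1.04 ± 0.16, edgeR adjusted p = 0.000252) and P3 above P2 (0.98 ± 0.16, edgeR adjusted p = 0.000357). The P1 call was lost without P1 replicate 2 (edgeR adjusted p = 0.0635), and both the P1 and the P3 call were lost with DESeq2 (adjusted p of 0.109 and 0.0633).

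The cyp27a genes, relatives of the mitochondrial sterol hydroxylase of bile acid synthesis, sit side by side on chromosome 9 (39461300 to 39509722, Zv9) and differed among themselves. The first of them, cyp27a7 (ENSDARG00000033802, chromosome 9, 39461300 to 39471449, Zv9), was at 2.17 CPM in the control, 3.14, 3.66 and 2.58 in P1, 2.31 and 2.28 in P2, and 6.3, 5.02 and 5.16 in P3. P3 stood clear of all other libraries and rose 2.52-fold against the control (1.33 ± 0.28, edgeR adjusted p = 0.00225), and it was above P1 (0.81 ± 0.16, edgeR adjusted p = 0.0031) and P2 (1.25 ± 0.19, edgeR adjusted p = 0.000158) as well. Its neighbour cyp27a1.3 (ENSDARG00000088013, chromosome 9, 39479881 to 39486225, Zv9) was at 0.835 CPM in the control, 1.63, 1.02 and 1.06 in P1, 1.03 and 0.76 in P2, and 1.5, 1.65 and 1.72 in P3. It was higher in P3 than in P2 (0.87 ± 0.30, edgeR adjusted p = 0.0465), with P3 and P1 overlapping, and the call was lost without either P2 library or without P3 replicate 1 or P3 replicate 2 (edgeR adjusted p of 0.083 to 0.315), with DESeq2 (adjusted p = 0.246), with library totals alone (edgeR adjusted p = 0.0512) and with the libraries thinned to the control's total (edgeR adjusted p = 0.134). For cyp27a1.4, with 95 counts in all, the values went the other way and passed no test, with P3 against P2 at -1.24 ± 0.43 (edgeR adjusted p = 0.0506). The 3 tested cyp46a genes (cyp46a1, cyp46a2 and cyp46a4), relatives of the mammalian enzyme that removes cholesterol from the brain, passed no test. The gene of the first bile acid enzyme, cyp7a1a, had 2 counts over the 9 libraries, and that of a later hydroxylase of the same path, cyp8b1, likewise 2.

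All 3 vitamin genes were tested. The gene cyp27c1 (ENSDARG00000092660, chromosome 6, 8144749 to 8158549, Zv9), whose product makes the long-wavelength form of vitamin A in zebrafish, was at 22.9 CPM in the control, 29.4, 29.3 and 27.5 in P1, 40.1 and 41.8 in P2, and 32.4, 34.8 and 29.8 in P3. Both P2 libraries were above all others, and every exposed library was above the control. It rose in P2 (0.84 ± 0.12, edgeR adjusted p = 3.19e-05) and P3 (0.50 ± 0.11, edgeR adjusted p = 0.00372), was higher in P2 than in P1 (0.51 ± 0.08, edgeR adjusted p = 0.000158), and was lower in P3 than in P2 (-0.35 ± 0.08, edgeR adjusted p = 0.00338), a call lost without P2 replicate 1 (edgeR adjusted p = 0.0677). Its model overlaps ercc3 on the same strand, so shared reads could not be set apart. The gene cyp2r1 (ENSDARG00000056587, chromosome 7, 28817567 to 28823100, Zv9) encodes in humans the enzyme that takes vitamin D to its circulating form, and was at 2.92 CPM in the control, 3.08, 2.71 and 2.45 in P1, 1.58 and 1.47 in P2, and 2.06, 2.16 and 2.26 in P3. The P2 libraries were the lowest, and it fell in P2 (-0.94 ± 0.30, edgeR adjusted p = 0.0273) and was lower there than in P1 (-0.85 ± 0.22, edgeR adjusted p = 0.00997). Without either P2 library both calls were lost, with edgeR adjusted p of 0.0606 and 0.0932 against the control and 0.0627 and 0.099 against P1, as they were with DESeq2 (adjusted p of 0.15 and 0.0941). The gene cyp24a1, whose product inactivates vitamin D, was at 4.59 CPM in the control and 2.45 to 3.93 CPM in the exposed libraries and passed no test (-0.51, -0.58 and -0.39 in P1, P2 and P3).

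Of the CYP4 genes, which encode fatty acid omega-hydroxylases, 3 of 4 were tested. The gene cyp4v8 (ENSDARG00000062132, chromosome 1, 16642201 to 16654540, Zv9), named CYP4V2 in the gene name table after the human gene of Bietti crystalline dystrophy, had 19 counts in the control, 1, 5 and 1 in P1, 0 and 1 in P2, and 4, 1 and 3 in P3. No exposed library came near the control, and the fall passed edgeR's test with adjusted p = 0.00211 in P1, 0.000259 in P2 and 0.00117 in P3. Only the control had enough counts for the low-count filter, so cyp4v8 was tested because it was high there. A fall was thereby favoured, and these p-values are no independent support for it. The ratio of control to exposed summed counts per library total was 10.7 (exact interval 4.29 to 30) for P1, 54.8 (8.71 to 2280) for P2 and 10.4 (4.33 to 27.4) for P3. Its paralog cyp4v7, also named CYP4V2 in that table, passed no test (0.43, 0.97 and 1.11), at 0.584 CPM in the control and 0.523 to 1.34 CPM in the exposed libraries. The most abundant CYP4 gene, cyp4t8 (ENSDARG00000004964, chromosome 16, 5534736 to 5584736, Zv9), was at 42.6 CPM in the control, 49.4, 51.8 and 50.3 in P1, 43.9 and 41.2 in P2, and 60.6, 53.9 and 57.4 in P3. It rose in P3 (0.43 ± 0.09, edgeR adjusted p = 0.00262), was higher in P3 than in P2 (0.43 ± 0.07, edgeR adjusted p = 0.000241) and lower in P2 than in P1 (-0.25 ± 0.07, edgeR adjusted p = 0.0169), the last call being lost without P1 replicate 1 or either P2 library (edgeR adjusted p of 0.0544 to 0.184) or with DESeq2 (adjusted p = 0.0584). Its model overlaps that of arnt on the same strand.

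Among the 4 CYP3 genes and the unplaced cyp1d1 and cyp20a1, cyp3c1 and cyp20a1 changed against the control. The gene cyp3c1 (ENSDARG00000015575, chromosome 3, 40964024 to 40971364, Zv9) was at 17.7 CPM in the control, 21.4, 22.5 and 21.9 in P1, 22.8 and 25 in P2, and 20, 26.4 and 26.4 in P3. It rose in P2 (0.44 ± 0.16, edgeR adjusted p = 0.0428) and P3 (0.46 ± 0.15, edgeR adjusted p = 0.0332), with P3 replicate 0 nearest to the control. Leaving out either P2 library, or P3 replicate 1 or P3 replicate 2, ended the call in that group (edgeR adjusted p of 0.0683 and 0.189 in P2, and 0.0826 and 0.0837 in P3). DESeq2 also ended both (adjusted p of 0.0923 and 0.0775), a filter at 1 CPM in 2 libraries or thinning to the control's total ended that in P2 (edgeR adjusted p of 0.0515 and 0.0541), and a fit of the 2 groups alone that in P3 (edgeR adjusted p = 0.0942). The gene cyp3a65, the fish CYP3A enzyme of liver and intestine, had 3 counts in the control and 3 to 14 in the exposed libraries and passed no test (0.88 ± 0.96, 0.56 ± 1.04 and 1.36 ± 0.90). Its relatives cyp3c1l2 and cyp3c4 passed none either. The orphan gene cyp20a1 (ENSDARG00000006040, chromosome 6, 9863332 to 9880111, Zv9) was at 29.9 CPM in the control, 35.7, 39.5 and 35.4 in P1, 38.4 and 35.7 in P2, and 40.3, 37.9 and 39.7 in P3. All exposed libraries were above the control, and it rose in P2 (0.31 ± 0.11, edgeR adjusted p = 0.036) and P3 (0.40 ± 0.10, edgeR adjusted p = 0.00921), with P1 at 0.30 ± 0.10 (edgeR adjusted p = 0.052). The P2 call was lost without either P2 library (edgeR adjusted p of 0.0572 and 0.17), with DESeq2 (adjusted p = 0.114) and with thinning to the control's total (edgeR adjusted p = 0.0772). The gene cyp1d1 (ENSDARG00000035569, chromosome 5, 27251207 to 27265935, Zv9) is a CYP1 relative that other zebrafish work found not to respond to aryl hydrocarbon receptor ligands, and it was at 7.76 CPM in the control, 5.4, 7.79 and 5.7 in P1, 9.56 and 8.04 in P2, and 6.49, 6.93 and 7.77 in P3. It passed no test against the control (-0.31, 0.18 and -0.13), and was higher in P2 than in P1 (0.49 ± 0.15, edgeR adjusted p = 0.0333), a call lost without either P2 library or without P1 replicate 0 or P1 replicate 2 (edgeR adjusted p of 0.062 to 0.283) and with DESeq2 (adjusted p = 0.113).

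The CYP2AA genes are a tandem group of the zebrafish with no single human counterpart. The 8 measured genes lie with cyp2ae1 in 374.2 kb of chromosome 23 (42649986 to 43024136, Zv9), and close copies of this kind can share reads. The most abundant, cyp2aa8 (ENSDARG00000090403, chromosome 23, 42910750 to 42919521, Zv9), was at 75.2 CPM in the control, 119.8, 121 and 116 in P1, 78.5 and 75.1 in P2, and 187, 158 and 162 in P3. The groups did not overlap except P2 with the control, and it rose in P1 (0.66 ± 0.10, edgeR adjusted p = 0.000144) and P3 (1.17 ± 0.10, edgeR adjusted p = 1.31e-07). P3 was above P1 (0.50 ± 0.06, edgeR adjusted p = 3.33e-05) and above P2 (1.14 ± 0.07, edgeR adjusted p = 7.22e-09), and P2 was below P1 (-0.63 ± 0.07, edgeR adjusted p = 9.56e-06).

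Its neighbours cyp2aa9 and cyp2aa4 had the same order of exposed groups at smaller size. The gene cyp2aa9 (ENSDARG00000070020, chromosome 23, 42888156 to 42901803, Zv9) was at 63 CPM in the control, 76.8, 77.9 and 82.7 in P1, 52.4 and 52 in P2, and 116, 90.3 and 90.8 in P3. The control lay between P2 and P1, and the rise passed the test in P3 (0.65 ± 0.12, edgeR adjusted p = 0.000757). It was higher in P3 than in P2 (0.92 ± 0.09, edgeR adjusted p = 1.84e-06) and P1 (0.32 ± 0.08, edgeR adjusted p = 0.0126) and lower in P2 than in P1 (-0.60 ± 0.09, edgeR adjusted p = 0.000197). Without P1 replicate 0 the edgeR adjusted p of P3 against P1 was 0.0514. The gene cyp2aa4 (ENSDARG00000002981, chromosome 23, 42937960 to 42954118, Zv9) was at 56.5 CPM in the control, 60.5, 62.9 and 63.6 in P1, 49.2 and 45.2 in P2, and 77.4, 68.7 and 67.3 in P3. It too had the control between P2 and P1, rose in P3 (0.33 ± 0.09, edgeR adjusted p = 0.0177), and differed between P3 and P2 (0.59 ± 0.07, edgeR adjusted p = 1.87e-05) and between P2 and P1 (-0.40 ± 0.07, edgeR adjusted p = 0.000839). Its rise in P3 was lost in a fit of those 2 groups alone (edgeR adjusted p = 0.0642).

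Other genes of the array fell in at least 1 exposed group. The gene cyp2aa1 (ENSDARG00000070017, chromosome 23, 42864596 to 42882107, Zv9) was at 11.9 CPM in the control, 6.97, 8.4 and 7.75 in P1, 3.47 and 3.64 in P2, and 12, 10.6 and 8.51 in P3. P2 was the lowest group, with a fall in P2 (-1.74 ± 0.22, edgeR adjusted p = 1.18e-05) and in P1 (-0.64 ± 0.19, edgeR adjusted p = 0.0268), and P3 overlapped the control. It was lower in P2 than in P1 (-1.11 ± 0.17, edgeR adjusted p = 0.000227) and higher in P3 than in P2 (1.53 ± 0.16, edgeR adjusted p = 4.44e-06) and P1 (0.42 ± 0.13, edgeR adjusted p = 0.0445). The gene cyp2aa2 (ENSDARG00000087868, chromosome 23, 42849539 to 42862163, Zv9) was at 5.59 CPM in the control, 2.61, 2.64 and 2.52 in P1, 2.01 and 1.85 in P2, and 2.87, 3.31 and 2.75 in P3. No exposed library reached the control, and it fell in P1 (-1.11 ± 0.22, edgeR adjusted p = 0.0026), P2 (-1.54 ± 0.25, edgeR adjusted p = 0.000155) and P3 (-0.92 ± 0.22, edgeR adjusted p = 0.00544), with P3 above P2 (0.62 ± 0.20, edgeR adjusted p = 0.0325). The fall in P3 was lost with DESeq2 (adjusted p = 0.0686). The gene cyp2aa3 (ENSDARG00000034070, chromosome 23, 42822579 to 42834318, Zv9) was at 35.8 CPM in the control, 36.1, 35.5 and 34.4 in P1, 21.7 and 23.3 in P2, and 31.8, 23.3 and 26.1 in P3. The P1 libraries lay around the control, while it fell in P2 (-0.67 ± 0.14, edgeR adjusted p = 0.00144) and P3 (-0.41 ± 0.13, edgeR adjusted p = 0.0302) and was below P1 in both (P2 -0.65 ± 0.10, edgeR adjusted p = 0.000225, P3 -0.39 ± 0.09, edgeR adjusted p = 0.00834). The gene cyp2aa7 (ENSDARG00000091601, chromosome 23, 42958180 to 42980313, Zv9) was at 5.59 CPM in the control, 2.03, 2.44 and 3.58 in P1, 3.65 and 3.69 in P2, and 5.36, 5.59 and 4.67 in P3. P1 was lowest, with a fall there (-1.07 ± 0.26, edgeR adjusted p = 0.0103) and a higher level in P3 than in P1 (0.96 ± 0.18, edgeR adjusted p = 0.00212). Its model overlaps a second CYP2 gene on the same strand. The eighth gene, cyp2aa12, and the outlying cyp2ae1 passed no test. The lone CYP2 gene of chromosome 1, cyp2u1, a relative of a human fatty acid hydroxylase, also passed none, with 6 to 13 counts per library. Calls lost when 1 library was left out were cyp2aa1 in P1 against the control (without P1 replicate 0 or P1 replicate 2, edgeR adjusted p of 0.0587 and 0.0538), cyp2aa1 in P3 against P1 (without any 1 of the P1 libraries, or P3 replicate 0 or P3 replicate 1, 0.0549 to 0.179), cyp2aa2 in P3 against P2 (without either P2 library or P3 replicate 1, 0.089 to 0.202) and cyp2aa3 in P3 against the control (without P3 replicate 1 or P3 replicate 2, 0.0573 and 0.0688). These 4 calls were lost with DESeq2 too (adjusted p of 0.0824, 0.147, 0.199 and 0.0605), and the last 3 in a fit of the 2 groups alone (edgeR adjusted p of 0.0676, 0.0534 and 0.0772). That of cyp2aa1 in P3 against P1 was also lost with library totals alone or thinning (edgeR adjusted p of 0.0564 and 0.0884).

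**Figure D4:**
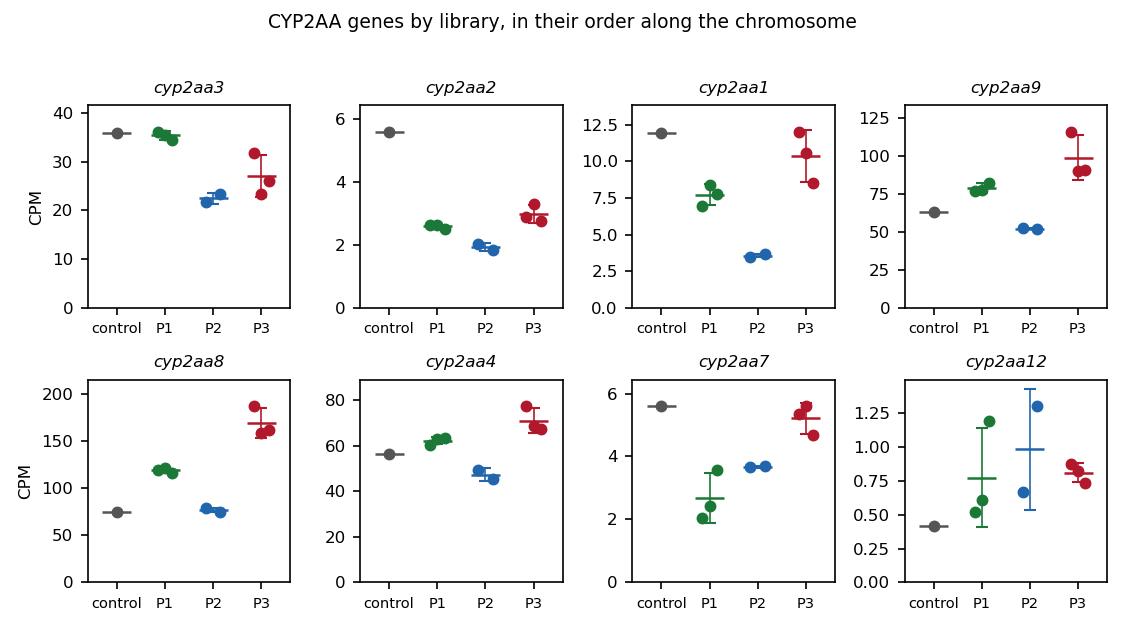
CPM in each library (y axis, from 0) of the 8 CYP2AA genes in their order along chromosome 23, by group, with the mean as a line and the SD as a bar where a group has more than 1 library. cyp2aa9, cyp2aa8 and cyp2aa4 are highest in P3, and cyp2aa2, cyp2aa1 and cyp2aa7 are highest in or level with the control.

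Summed over the 8 genes, the CYP2AA level was 254.2 CPM in the control, 309.7 ± 3.69 (SD, n = 3) in P1, 208.8 ± 3.88 (SD, n = 2) in P2 and 385.8 ± 41.3 (SD, n = 3) in P3. Of the 8, 1 rose and 3 fell in P1, beside 7.08% and 9.19% of all tested genes. In P2, 0 rose and 3 fell, beside 14.2% and 15.6%, and in P3, 3 rose and 2 fell, beside 10.4% and 12.2%. The rises were those of cyp2aa8 in P1 and P3 and of cyp2aa9 and cyp2aa4 in P3, while the falls were in the less abundant genes and in cyp2aa3.

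A second array lies on chromosome 20 (25555539 to 25645409, Zv9) and holds cyp2ad, cyp2v, cyp2p and cyp2j genes, relatives of human CYP2J2, which turns arachidonic acid into epoxides. Of its 10 members, 8 were tested. The gene cyp2ad3 (ENSDARG00000022650, chromosome 20, 25578033 to 25581283, Zv9) was at 15.5 CPM in the control, 9.41, 9.82 and 10.2 in P1, 6.58 and 5.43 in P2, and 11.5, 12.8 and 12.2 in P3. The groups did not overlap, with P2 lowest and the control highest, and it fell in P1 (-0.66 ± 0.14, edgeR adjusted p = 0.00372) and P2 (-1.38 ± 0.16, edgeR adjusted p = 4.52e-06), while P3 did not pass (-0.35 ± 0.14, edgeR adjusted p = 0.0786). P2 was below P1 (-0.71 ± 0.12, edgeR adjusted p = 0.000572) and P3 above P2 (1.03 ± 0.12, edgeR adjusted p = 9.67e-06), and the difference of P3 from P1 (0.32 ± 0.10, edgeR adjusted p = 0.0481) was lost without any 1 of the P1 libraries or without P3 replicate 1 or P3 replicate 2 (edgeR adjusted p of 0.0855 to 0.159), with DESeq2 (adjusted p = 0.232), and with RLE factors, library totals alone, thinning or the 2 groups alone (edgeR adjusted p of 0.0505 to 0.0562).

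Next to it, cyp2v1 (ENSDARG00000018485, chromosome 20, 25581664 to 25588018, Zv9) was at 20.6 CPM in the control, 20, 19 and 19.2 in P1, 16.3 and 14.3 in P2, and 21.4, 21.7 and 22.1 in P3. P2 was lowest, with a fall against the control (-0.44 ± 0.12, edgeR adjusted p = 0.0117) and a lower level than P1 (-0.35 ± 0.09, edgeR adjusted p = 0.00846), and P3 was above P2 (0.52 ± 0.09, edgeR adjusted p = 0.000375). The first 2 calls were lost without P2 replicate 1 (edgeR adjusted p of 0.0791 and 0.16) and with DESeq2 (adjusted p of 0.0637 and 0.0552).

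The cyp2p genes behaved unlike each other. The gene cyp2p6 (ENSDARG00000042978, chromosome 20, 25592712 to 25598048, Zv9) was at 3.01 CPM in the control, 1.8, 1.35 and 1.46 in P1, 0.914 and 0.978 in P2, and 1.25, 1.4 and 1.62 in P3. Every exposed library was below the control, and it fell in P1 (-0.95 ± 0.30, edgeR adjusted p = 0.0387), P2 (-1.66 ± 0.34, edgeR adjusted p = 0.00151) and P3 (-1.06 ± 0.30, edgeR adjusted p = 0.0172). The P1 call was lost without P1 replicate 1 or P1 replicate 2 (edgeR adjusted p of 0.0838 and 0.0825). Both the P1 and the P3 call were lost with DESeq2 (adjusted p of 0.228 and 0.141). The gene cyp2p7 (ENSDARG00000042980, chromosome 20, 25598394 to 25602989, Zv9) was at 3.09 CPM in the control, 1.86, 2.17 and 1.72 in P1, 1.52 and 1.96 in P2, and 3.49, 2.86 and 3.83 in P3. It passed no test against the control but was higher in P3 than in P1 (0.84 ± 0.19, edgeR adjusted p = 0.00858), a call lost with DESeq2 (adjusted p = 0.0642), and than in P2 (0.97 ± 0.22, edgeR adjusted p = 0.00395), the latter lost without P2 replicate 0 (edgeR adjusted p = 0.0757). The gene cyp2p9 (ENSDARG00000022631, chromosome 20, 25611234 to 25614476, Zv9) had 8 counts in the control, 4, 5 and 2 in P1, 2 and 5 in P2, and 26, 13 and 18 in P3. P3 stood above all other libraries. Its summed counts per library total were 4.66 times those of P1 (exact interval 2.42 to 9.86, edgeR adjusted p = 0.00369) and 5.38 times those of P2 (2.45 to 14, edgeR adjusted p = 0.00289), the latter call lost without P2 replicate 0 (edgeR adjusted p = 0.059). For cyp2p8 (ENSDARG00000042982, chromosome 20, 25604998 to 25609609, Zv9), 25 counts in P3 stood against 3 in P2, a ratio of 5.51 (exact interval 1.68 to 28.5, edgeR adjusted p = 0.0322). The call was lost without P2 replicate 1 (edgeR adjusted p = 0.292). Only P3 replicate 0, with 12 counts, had enough for the low-count filter, which favoured a higher level in P3. The gene cyp2ad6, at the edge of the array, passed no test, with 4 to 17 counts per library. The gene cyp2p10 passed none either, at 3.51 CPM in the control and 3.31 to 4.81 CPM in the exposed libraries.

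The 2 members that rose in all groups are both of the CYP2 family. The gene cyp2y3 (ENSDARG00000007173, chromosome 15, 65144 to 71354, Zv9) was at 58 CPM in the control, 84.5, 80 and 87.4 in P1, 91.9 and 86.6 in P2, and 84.2, 102 and 114 in P3. Every exposed library was above the control, and it rose in P1 (0.54 ± 0.13, edgeR adjusted p = 0.00812), P2 (0.62 ± 0.13, edgeR adjusted p = 0.00201) and P3 (0.80 ± 0.13, edgeR adjusted p = 0.000216). The gene cyp2x7 (ENSDARG00000044002, chromosome 25, 17729050 to 17735545, Zv9) was at 13.8 CPM in the control, 21.3, 21.9 and 24.4 in P1, 21.8 and 20.2 in P2, and 17.8, 22.5 and 22.7 in P3. It rose in P1 (0.71 ± 0.15, edgeR adjusted p = 0.00414), P2 (0.61 ± 0.16, edgeR adjusted p = 0.00845) and P3 (0.61 ± 0.15, edgeR adjusted p = 0.00778), with the 3 exposed groups overlapping, and the P2 call was lost without P2 replicate 0 (edgeR adjusted p = 0.0514). Its neighbour cyp2x6 (ENSDARG00000079653, chromosome 25, 17715896 to 17724338, Zv9) was at 1.17 CPM in the control, 2.38, 3.39 and 2.19 in P1, 1.52 and 2.28 in P2, and 3.37, 4.39 and 4.38 in P3. It rose in P3 against the control (1.79 ± 0.39, edgeR adjusted p = 0.00272), where the control had 14 counts and the ratio an exact interval of 2.02 to 6.46. P3 was also above P2 (1.08 ± 0.23, edgeR adjusted p = 0.00314), a call lost without P2 replicate 0 (edgeR adjusted p = 0.0812). Both models lie within that of cyp2x8, so reads may be shared. None of the 4 tested cyp2k genes (cyp2k8, cyp2k16, cyp2k18 and cyp2k19), a family of which cyp2k6 acts on aflatoxin in zebrafish, passed a test in any of the 6 comparisons, and the most abundant of them, cyp2k16, was at 26.5 CPM in the control and 24.0 to 31.0 CPM in the exposed libraries.

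Among the exposed groups the summed level of the 61 genes, given above, was lowest in P2 and highest in P3. In P2 against P1, 2 of 49 were higher and 10 lower, beside 9.91% and 10.6% of all tested genes. In P3 against P1, 9 were higher and 1 lower, beside 6.01% and 4.42%. In P3 against P2, 16 were higher and 1 lower, beside 11% and 10.5%. The median log2 fold change of the 49 was -0.25, 0.19 and 0.49 in these 3 comparisons, and that of all tested genes was within 0.01 of 0. A joint edgeR test for any difference among P1, P2 and P3 was passed by 17 of the 49, beside 28.8% of all tested genes. The genes called in at least 1 pair numbered 21, beside 32.9% of all tested genes. In 9 of the 49, namely cyp2aa1, cyp2aa2, cyp2aa4, cyp2aa8, cyp2aa9, cyp2ad3, cyp2v1, cyp4t8 and cyp27a7, every P3 library was above every P1 library and every P1 library above every P2 library, beside 2.64% of all tested genes. This order was chosen after the values were seen, so its count is a description.

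**Figure D5:**
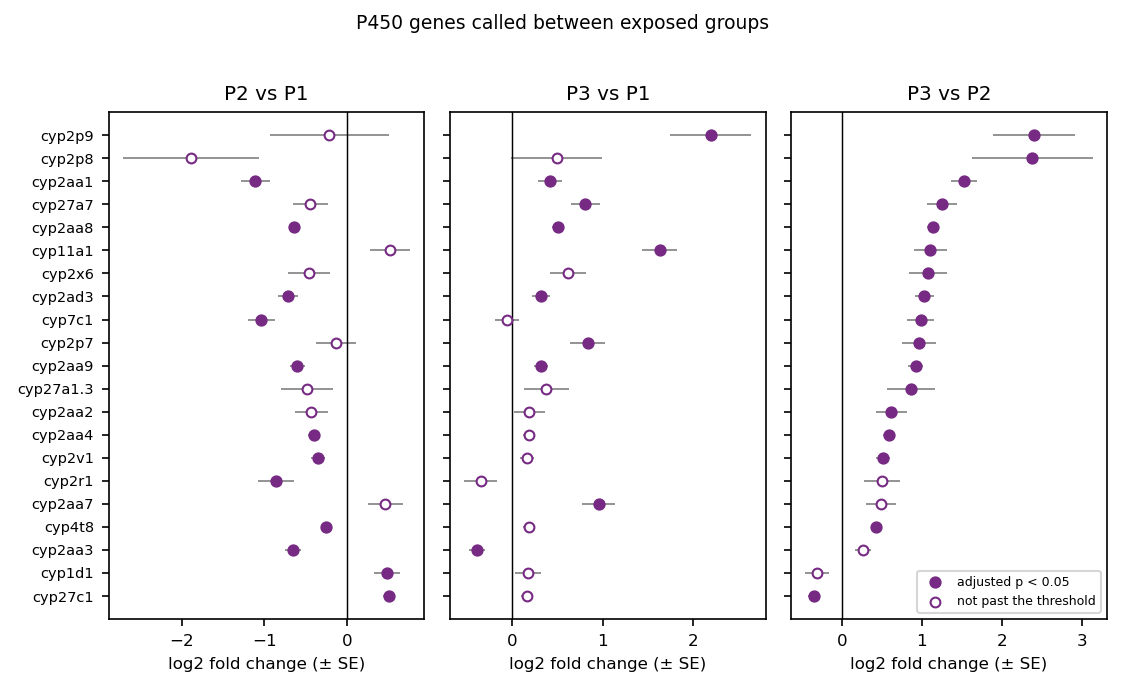
Log2 fold change (x axis, ± standard error) of the 21 P450 genes called in at least 1 pair of exposed groups, with 1 panel per pair and filled points for an edgeR adjusted p below 0.05. In P3 against P2 cyp27c1 is the only filled point left of 0, and the other 16 filled points lie to its right.

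The sums of genes listed as markers of liver, gut and yolk syncytial layer, and hnf4a, were on average likewise highest in P3 and lowest in P2 among exposed groups. Which cells carried these transcripts was not tested, so the sums cannot be taken as separate tissues. The gene hnf4a, a nuclear receptor of liver, gut and kidney cells, was at 10 CPM in the control, 22.2, 22.4 and 20.1 in P1, 10.4 and 10.5 in P2, and 26.9, 26 and 22.4 in P3. It rose in P1 (1.11 ± 0.15, edgeR adjusted p = 6.92e-05) and P3 (1.32 ± 0.15, edgeR adjusted p = 4.09e-06) and not in P2 (0.06 ± 0.17). The 5 liver markers (fabp10a, tfa, cp, serpina1 and fgb) summed to 1463 CPM in the control, 1590 to 1657 in P1, 1163 to 1184 in P2 and 1878 to 2140 in P3. In P1, P2 and P3, 0, 0 and 2 of 4 tested rose and 0, 2 and 0 fell. Of all tested genes, 7.08%, 14.2% and 10.4% rose and 9.19%, 15.6% and 12.2% fell. The hepatocyte marker fabp10a had 2 counts over all libraries, and tfa made up 1145 of the 1463 CPM in the control, so this sum is no measure of hepatocytes. The marker cp departed from the sum, at 33.8 CPM in P1, 27.4 in P2 and 27.8 in P3, where replicate 0 had 9.1 and the other libraries 37.9 and 36.4. The 5 endoderm and gut markers, which were mostly fabp2, summed to 364.9 CPM in the control, 342.3 to 396.7 in P1, 240.1 to 242.7 in P2 and 398.6 to 480.4 in P3. Of 4 tested, 1 (fabp2) was lower in P2, beside 15.6% of all tested genes. The endoderm marker foxa3 differed little, at 25.6 CPM in P1, 25.2 in P2 and 25.9 in P3, and passed no test. The gut markers sox17, cdx1b and vil1l, each below 1 CPM in every library, did not follow the order of the sum. The 3 matched markers of the yolk syncytial layer summed to 4096 CPM in the control, 2780 to 3312 in P1, 2644 to 2785 in P2 and 3552 to 4132 in P3. Of these 3 genes, 3, 3 and 1 fell in P1, P2 and P3 and 0 rose, beside the shares above. The 4 pronephros markers summed to 172.4 CPM in the control, 159.6 to 165.9 in P1, 164.2 to 171.5 in P2 and 183.6 to 193.5 in P3. Of 4 tested, 0, 1 and 1 rose and 0, 3 and 0 fell in P1, P2 and P3, beside the same shares. The part of these tissues in the P450 values was not tested. The summed markers of brain and neurons (597.2 CPM in the control and 477.5 to 521.8 exposed), red cells (234.6 and 153 to 234.3) and skin (16500 and 10320 to 11810) were at or below the control in every exposed library.

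The genes that serve P450 enzymes with electrons and haem were counted against the shares of all tested genes that rose and fell (7.08% and 9.19% in P1, 14.2% and 15.6% in P2, 10.4% and 12.2% in P3). Of 10 tested electron donor genes, 1 rose and 1 fell in P1, 2 rose and 2 fell in P2, and 1 rose and 1 fell in P3, which is near those shares. The cytochrome b5 gene cyb5a, whose product can pass the second electron to P450s, was at 100.3 CPM in the control, 197, 182 and 177 in P1, 216 and 195 in P2, and 161, 190.0 and 190.4 in P3. All exposed libraries were above the control, and it rose in P1 (0.89 ± 0.10, edgeR adjusted p = 1.82e-05), P2 (1.04 ± 0.11, edgeR adjusted p = 1.93e-06) and P3 (0.85 ± 0.10, edgeR adjusted p = 1.36e-05). The cytochrome b5 reductase gene cyb5r3 fell in all 3 groups (-0.53, -0.69 and -0.80), and the P450 reductase gene por passed no test (-0.26, -0.15 and -0.24). Of 9 genes of haem synthesis, alas1, the rate-limiting step outside red cells, rose in P1 (0.35 ± 0.10, edgeR adjusted p = 0.0168), P2 (0.60 ± 0.10, edgeR adjusted p = 0.000235) and P3 (0.66 ± 0.10, edgeR adjusted p = 7.54e-05), urod rose in P2 (0.23 ± 0.08), and none fell.

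Among 12 tested receptor genes that govern P450 transcription, 3 rose and 2 fell in P1, 1 rose and 2 fell in P2, and 4 rose and 4 fell in P3, to be read against the same shares. The aryl hydrocarbon receptor gene ahr2 rose in all 3 (0.84, 0.90 and 0.79). Its relative ahr1b went the other way. It fell in P2 (-0.98 ± 0.25, edgeR adjusted p = 0.00668) and P3 (-0.90 ± 0.23, edgeR adjusted p = 0.0096) and did not pass in P1 (-0.46 ± 0.23). The pregnane X receptor gene nr1i2, whose product drives CYP3A genes in mammals, rose in P3 (0.51 ± 0.17, edgeR adjusted p = 0.0383). The gene nr0b2a, whose mammalian counterpart encodes the small heterodimer partner that represses bile acid synthesis, was at 64.2 CPM in the control, 30.1, 26.7 and 29.2 in P1, 17.7 and 19.3 in P2, and 43.4, 38.2 and 38.1 in P3. The groups did not overlap, and it fell in P1 (-1.16 ± 0.10, edgeR adjusted p = 4.05e-07), P2 (-1.79 ± 0.11, edgeR adjusted p = 1.88e-09) and P3 (-0.69 ± 0.10, edgeR adjusted p = 5.47e-05). Of 9 tested partner genes of fatty acid oxidation products, 0 rose and 2 fell in P1, 1 rose and 3 fell in P2, and 1 rose and 3 fell in P3, again beside those shares. Among these the cyclooxygenase gene ptgs2a and the lipoxygenase gene alox12 fell in all 3 groups. The paralog ptgs2b went the other way, with a rise in P2 and P3 that did not pass in P1. A further cyclooxygenase gene, ptgs1, fell in P2 and P3 and did not pass in P1. The epoxide hydrolase genes ephx1 and ephx2, whose products open epoxides made by P450s, passed no test.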

How the data were processed

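RNA was extracted from embryos with the RNeasy Mini kit and made into poly(A)-selected TruSeq libraries, per the labels' protocols. The submitters' processing notes name Novoalign and the build Zv9. Which tool and annotation were used for counting, and whether by strand, is not given in the sources used. The deposited gene tables hold whole-number counts per gene, which were tested, and FPKM, which the authors computed and which were used for levels between genes. Per the file headers, both are given for each library, and counts divided by gene length and library total gave the deposited FPKM within 1% for 100% of values. The control library stands in all 3 tables, and 11 per-sample columns with no sample here were not used.

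Members and lists were chosen with earlier results of these data known. Counts were filtered with filterByExpr (minimum count 10, minimum total 15), scaled by TMM and fitted with edgeR 4.0.16 (limma 3.58.1, R 4.3.3) by quasi-likelihood, with 1 mean per group over the 9 libraries and 5 residual degrees of freedom. Since the control group is 1 library, the filter kept genes that reached the minimum count, scaled to library size, in only 1 library. Benjamini-Hochberg adjustment ran over all tested genes with a threshold of 0.05. The standard error is the log2 fold change divided by the square root of its F value. DESeq2 1.42.0 was an alternative. The others were no filter, a filter at 1 CPM in 2 libraries, RLE factors, unscaled library totals, a replicate block, the 2 groups of a comparison alone, thinning to the control's total, capital symbols included, and each exposed library left out. The fits were also run on simulated counts with the same spread in every library, and the outcome is not given here. Such counts do not cover spreads that differ between groups or libraries that are technical.

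A member is described library by library if it was called against the control and averaged at least 1 CPM in the higher group, or was called between exposed groups. The others are given by range and count, or by a value where they define a role. Members called at 20 or fewer counts in the lower group have exact 95% conditional binomial intervals of their count ratios. These ratios use summed counts over summed library totals, without TMM factors. Partner, marker and capital-symbol genes have no such interval, even where their calls rest on as few counts. A total of 3 counts, the limit that a count of 0 allows, is 0.144 to 0.25 CPM, and covers counting error only, as do the intervals. Close paralogs and overlapping genes can share reads. The gene name table held 42 of the 61 IDs. Of the list genes, pora, porb, vdra, alox5a, pla2g4aa, apoa1b and hbbe1 had no match, and vil1, apobb.1, hsd3b2 and ppara were matched as vil1l, apobl, hsd3b1 and pparab. Protein and promoter sequences were not used here.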

Additional observations from a re-analysis of the deposited data

Results flagged for a closer look

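For 5 genes the change against the control had opposite signs in 2 exposed groups and passed edgeR's test in at least 1 of them, and the difference between those groups passed as well. The control is 1 library shared by both changes, so the pair of exposed groups carries the test. The gene cyp11a1 was lower in P1 than in the control, a call lost in some alternatives. It was higher in P3, where the change did not pass (edgeR adjusted p = 0.081). P3 exceeded P1 by 1.63 on the log2 scale. For the other 4 the fitted change was below 0 in P2 and above 0 in P3. Of these changes, those of cyp4t8 in P2 and cyp2v1 in P3 lay within their standard errors of 0. P3 exceeded P2 by 0.92 for cyp2aa9, 0.59 for cyp2aa4, 0.52 for cyp2v1 and 0.43 for cyp4t8. For cyp2aa9, cyp2aa4 and cyp4t8 only the rise in P3 passed the test against the control, and for cyp2v1 only the fall in P2.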

How the results depend on the processing

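The members called numbered 13, 16 and 18 in P1, P2 and P3 against the control, and 12, 10 and 17 in P2 against P1, P3 against P1 and P3 against P2. With DESeq2 the first 3 counts were 7, 10 and 11 (3, 3 and 10 higher, 4, 7 and 1 lower) and that of P3 against P1 was 6, with 17 to 28 of the members given no adjusted p. With the replicate block the 6 counts were 10, 15, 18, 11, 9 and 15. Deviations from the group mean correlated at -0.464 to 0.154 for same-numbered libraries of different groups, and at -0.257 to 0.577 for differently numbered ones. With so few libraries per group such deviations are tied to each other, so they cannot decide whether replicate numbers pair libraries. The labels do not say so either. With 1 exposed library left out the counts ranged from 9 to 11, 12 to 13, 16 to 18, 8 to 12, 7 to 12 and 12 to 17. With capital symbols included they were 13, 17, 19, 13, 12 and 18. The joint test among exposed groups, passed by 17 members, was passed by 16 to 21 under alternatives chosen after seeing the data. Of 86 called results over 29 genes, 55 kept their call in every alternative that gave them an adjusted p, and 31 lost it in at least 1. Of these, 26 lost it when 1 library was left out, 22 with DESeq2 and 9 with the replicate block. Alternatives that gave a gene no adjusted p are not counted, so the calls of cyp4v8 and cyp21a2 were not checked with DESeq2. These 2 genes had 8 or 9 alternatives against the control, where cyp17a1 had 10 or 11. In P3 against P2, cyp2p8 had 8 and cyp2p9 11, where cyp2aa1 had 13. In P3 against P1, cyp2p9 had 12 and cyp2aa1 14. No called result changed sign. The single control library cannot be left out, and genes below about 20 counts per library rest on few reads.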

Other observations

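Cytochrome P450 genes with capital symbols in the files lie outside the set described above and include a neighbour of cyp2y3. This gene, CYP2F1 (2 of 2), had 4 counts in the control, 9, 6 and 7 in P1, 23 and 20 in P2, and 36, 17 and 19 in P3. It was above the control and P1 in every P2 and P3 library, and by edgeR's test it rose in P3 (2.03 ± 0.70, adjusted p = 0.0454) and was higher than in P1 in both P2 (1.39 ± 0.44, adjusted p = 0.0313) and P3 (1.56 ± 0.39, adjusted p = 0.015). The rise against the control rests on its 4 counts there. Calls of capital-symbol genes were not checked with DESeq2 or with a library left out.

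CYP27B1, whose product makes the active form of vitamin D in mammals, had 18 counts in the control, 10, 17 and 11 in P1, 5 and 10 in P2, and 15, 7 and 12 in P3. It fell in P2 by edgeR's test (-1.79 ± 0.56, adjusted p = 0.0228). CYP2D6 (2 of 9), whose model overlaps cyp2aa7, was higher in P3 than in P1 (0.67 ± 0.14, edgeR adjusted p = 0.0049) and P2 (0.59 ± 0.16, edgeR adjusted p = 0.0117). CYP11A1 (1 of 2), which shares its name with the enzyme of the first steroid step, had 7 counts in the control, 3, 2 and 0 in P1, 0 and 2 in P2 and none in P3, and was not tested.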
